A study of Mus musculus with 16 samples.

Results

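Islets of the NOD mouse were set against islets of the other 7 founder strains of the Diversity Outbred stock, by the accessible chromatin that ATAC-seq found in each. The 2 samples of strain NOD_ShiLtJ, 1 female and 1 male, were compared with 14 samples, 1 female and 1 male each of 129S1_SvImJ, A_J, C57BL/6J, CAST_EiJ, NZO_HlLtJ, PWK_PhJ and WSB_EiJ. These are written below as 129, AJ, B6, CAST, NZO, PWK and WSB. No sample carried a treatment or a transgene. Each sample was a batch of 50 islets, so all cell types of the islet and whatever adhered to it were read together, and the labels used here give no age and do not say how many animals a sample came from. In ATAC-seq a transposase inserts sequencing adapters into DNA that is not wrapped tightly in nucleosomes, and the read pile that forms there is called as a peak. Each strain is therefore known from a single pair of samples, and p-values measure the spread within such pairs.

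NOD is the classic inbred model of autoimmune diabetes: T cells enter the islets and destroy the beta cells, and females are affected more often than males. Its risk is carried by the major histocompatibility complex (MHC) and by many further insulin-dependent diabetes (Idd) loci, among them genes of T cells and of natural killer cells. Open chromatin at a promoter or enhancer is a precondition of transcription, but a peak is not a measure of transcription, and in a bulk sample fewer cells of a type and a less open region per cell cannot be told apart.

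The peaks of the 16 sample lists on chromosomes 1 to 19 were merged into 358621 regions wherever they shared a base. The value of a sample in a region was its highest summit signal, and it is printed as scaled signal, that is, divided by the median of that sample over the 40930 regions that were called in every one of the 16. A scaled signal of 1 is thus the typical shared region, and 0 means that no peak passed the threshold of the authors, not that the region was closed. The NOD lists held 89618 peaks (female) and 94449 peaks (male), against 77887 to 167051 in the other samples. The lists carry no read totals, and depth per sample is therefore unknown here. The median summit signal over shared regions, before scaling, was 86 and 82 in NOD and 32 to 136 elsewhere, lowest in the PWK male. Islet identity was checked on promoters: 21 of 24 beta cell genes had a promoter peak in both NOD samples, and the scaled signal over the list summed to 59.4 and 50.1 in NOD against 43.5 to 69.8 elsewhere. Of 35 leukocyte genes, 15 had no promoter region in any sample, among them Cd3e, a chain of the T cell receptor complex.

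A set of regions that carry the results are shown first, each as the 300 bases around its highest summit, from the GRCm38 (mm10) reference, plus strand. The reference is B6 DNA, so the letters NOD carries there are not known from these files. Capitals mark matches on either strand to 14 short motifs, which may overlap one another. The motifs, with the share of the 40930 tested windows that held each, were CTCF core CCNNNAGNNGGC (17.3%), AP-1 TGANTCA (15.8%), FOXA TGTTTAC (8.07%), NEUROD1 E-box CAGATGG (9.86%), homeodomain CTAATTA (3.47%), HNF1 GTTAATNATTA (0.633%) and MAF site TGCTGAC (6.94%). The others were GATA factor letters AGATAAG (3.31%), ETS CCGGAAG (5.73%), PU.1 AGGAAGT (7.46%), interferon-stimulated response element TTTCNNTTTC (3.97%), NF-kB GGGANNNNCC (16.5%), SP/KLF GGGCGGG (15.3%) and NFY CCAAT (34.6%). The first 5 are an intron of Mef2c (chr13:83518319-83518618), the promoters of the T cell receptor segment Trav8n-2 (chr14:53345627-53345926) and of the chromosome 2 genes Gm14410 (chr2:177206350-177206649) and Gm14325 (chr2:177840245-177840544), all higher in NOD, and a region near Klrb1c (chr6:128764215-128764514) that was lower. The last 3 are a promoter-side region of Dzip1l (chr9:99632355-99632654), lower in NOD with a pair of AP-1 matches, an intron of Map3k5 (chr10:20077269-20077568) and the promoter of Arntl2 (chr6:146795882-146796181), where neither NOD sample had a peak.
Mef2c: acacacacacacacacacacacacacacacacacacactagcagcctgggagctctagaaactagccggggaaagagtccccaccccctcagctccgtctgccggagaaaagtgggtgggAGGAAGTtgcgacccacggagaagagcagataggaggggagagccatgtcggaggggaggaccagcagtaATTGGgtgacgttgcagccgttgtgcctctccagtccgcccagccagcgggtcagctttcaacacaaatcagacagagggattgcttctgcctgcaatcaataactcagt
Trav8n-2: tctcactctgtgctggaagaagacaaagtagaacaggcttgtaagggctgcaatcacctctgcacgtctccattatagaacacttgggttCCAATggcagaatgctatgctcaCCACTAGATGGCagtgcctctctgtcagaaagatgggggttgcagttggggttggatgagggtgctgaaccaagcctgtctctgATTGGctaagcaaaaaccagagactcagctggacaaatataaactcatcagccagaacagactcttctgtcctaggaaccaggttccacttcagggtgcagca
Gm14410: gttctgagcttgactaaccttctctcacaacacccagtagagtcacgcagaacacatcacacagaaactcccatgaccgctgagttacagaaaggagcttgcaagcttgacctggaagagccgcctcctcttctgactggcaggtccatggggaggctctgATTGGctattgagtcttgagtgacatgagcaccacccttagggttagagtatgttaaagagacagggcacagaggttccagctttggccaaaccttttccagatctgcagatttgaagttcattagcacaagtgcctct
Gm14325: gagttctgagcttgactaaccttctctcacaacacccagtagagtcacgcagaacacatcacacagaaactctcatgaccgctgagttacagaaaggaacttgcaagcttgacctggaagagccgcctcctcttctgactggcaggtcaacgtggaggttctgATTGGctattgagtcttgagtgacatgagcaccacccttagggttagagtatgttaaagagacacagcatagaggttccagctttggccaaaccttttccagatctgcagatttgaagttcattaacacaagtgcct
Klrb1c: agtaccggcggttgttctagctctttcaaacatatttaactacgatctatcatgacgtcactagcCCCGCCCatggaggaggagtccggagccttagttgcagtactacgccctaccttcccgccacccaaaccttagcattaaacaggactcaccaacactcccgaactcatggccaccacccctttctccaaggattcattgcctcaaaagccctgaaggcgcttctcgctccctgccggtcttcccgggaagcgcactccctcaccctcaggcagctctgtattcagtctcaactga
Dzip1l: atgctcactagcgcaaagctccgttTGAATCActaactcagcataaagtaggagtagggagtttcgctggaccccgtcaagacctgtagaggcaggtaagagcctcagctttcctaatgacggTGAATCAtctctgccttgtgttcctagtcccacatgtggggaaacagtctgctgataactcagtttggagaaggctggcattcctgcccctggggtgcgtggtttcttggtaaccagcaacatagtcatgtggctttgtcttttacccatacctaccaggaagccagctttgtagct
Map3k5: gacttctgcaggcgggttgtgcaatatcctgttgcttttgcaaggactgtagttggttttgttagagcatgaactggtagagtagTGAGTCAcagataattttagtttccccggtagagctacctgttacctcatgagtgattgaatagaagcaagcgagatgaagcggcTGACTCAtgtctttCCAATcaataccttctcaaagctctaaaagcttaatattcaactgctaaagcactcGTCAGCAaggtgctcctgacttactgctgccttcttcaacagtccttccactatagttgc
Arntl2: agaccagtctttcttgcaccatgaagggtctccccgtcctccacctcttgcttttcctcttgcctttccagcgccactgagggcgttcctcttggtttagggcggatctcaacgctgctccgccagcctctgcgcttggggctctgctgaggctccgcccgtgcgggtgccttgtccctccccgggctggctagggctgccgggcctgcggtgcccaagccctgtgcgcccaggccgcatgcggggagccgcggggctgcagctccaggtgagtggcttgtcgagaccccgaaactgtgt
No match in such a window says only that these letters are not in it, and a match is not a bound site.

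To determine where NOD islets differed from those of the other strains, the log2 signal of NOD was compared with the mean of the 7 other strains at the 40930 shared regions (limma, strain and sex in the model, Benjamini-Hochberg adjusted p under 0.05). NOD was higher at 681 regions (1.66% of those tested) and lower at 558 (1.36%). The median difference was 1.03 (log2) in the higher and -1.08 in the lower regions, with a range of 0.67 to 2.79 and of -3.03 to -0.67, and the median over all tested regions was 0.04. Both NOD samples lay above all 14 others at 325 of the 681 higher regions (934 of all tested regions, 2.28%) and below all 14 at 274 of the 558 lower ones (563 of all, 1.38%).

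The called regions were then sorted by class of sequence. Promoters, taken as regions within 3000 bases of a transcription start, were higher at 252 of 14836 (1.7%) and lower at 143 (0.964%). Introns held 41.4% of the lower regions, 26.6% of the higher ones and 30.3% of all tested. Of the tested regions 2.24% lay in repeated sequence, meaning that most of the 31-base words sampled from the window occurred more than once in the reference. That share was 14.1% (96 regions) among the higher and 7.53% (42) among the lower regions. Signal in a repeated region can come from any copy, so it cannot be told apart from a difference in the number of copies a strain carries. Without repeated sequence, an alternative chosen after seeing the data, 538 regions were higher and 459 lower.

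The counts rested on the pairs. They fell to 26 higher and 20 lower without the NOD female and to 38 and 48 without the NOD male. They were 199 and 230 without CAST, 403 and 350 without WSB, and 1544 and 1030 without NZO. In a fit that took the 14 other samples as a single group, which counts the differences among those strains as error, 4 regions were higher and 8 lower. With no centring of the samples the split was 129 higher to 31 lower.

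The largest increases in NOD fell on a few gene families. Among higher regions where both NOD samples lay above all others, 6 of the 10 with the largest difference lay between 176 and 178 Mb on chromosome 2, in regions that include promoters of Gm14410, Gm14325, Gm14403, Gm14413, Gm14408 and 2210418O10Rik. Some of these regions were wide, with 81842 bases at Gm14403, 13899 at Gm14410 and 13400 at Gm14325 against a median of 1144 over shared regions, and each value is the highest summit anywhere in the region. The scaled signal at Gm14410 was 65.6 in the NOD female and 66.2 in the male, against 4.35 to 22.5 (median 8.17) in the other 14 samples. That is a difference of 2.79 ± 0.20 (log2 ± SE, limma, adjusted p = 2.98e-05), and the lack of overlap was a condition of the choice. At Gm14325 the NOD samples had 29.1 and 30.9 and the others 3.40 to 11.9 (median 4.47). PWK came close at Gm14403, where NOD had 42.1 and 42.3, the PWK female 40.3 and the lowest sample, the 129 female, 3.78. It came closer still at 2210418O10Rik, with 12.76 and 12.97 against 13.07 and 13.06 in NOD. With the mean signal of a peak in place of its summit 4 of the 6 were not called: Gm14410 differed by 0.31 (limma, adjusted p = 0.672), Gm14325 by 0.63 (0.13), Gm14413 by 0.26 (0.611) and Gm14403 by -0.10 (0.863). None of the 6 was called in the fit on a single comparison group (limma, adjusted p of 0.0671 to 0.721). In that stretch 12 of 12 tested regions from 177 to 178 Mb and 7 of 7 from 176 to 177 Mb were higher in NOD, 11 and 7 of them in repeated sequence. The 31-base words of the Gm14410 window had a median of 15 copies in the reference, those of the Gm14325 window 16. The same stretch holds the zinc finger protein genes Zfp970 and Zfp972.

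A second such stretch lay on chromosome 4, where 7 of 27 tested regions from 145 to 146 Mb, 5 of 16 from 146 to 147 Mb and 12 of 51 from 147 to 148 Mb were higher in NOD. It holds the zinc finger protein genes Zfp984 and Zfp991. Zfp984 stood at 4.16 and 4.74 in NOD and at 0.302 to 1.86 in the others, a difference of 1.94 ± 0.18 (adjusted p = 0.00015), with no overlap. Zfp991 stood at 3.01 and 3.32 against 0.632 to 1.5. Both promoters were repeated sequence, as were 9 of the 12 higher regions in the last of these bins.

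T cell receptor alpha segments, the V genes that T cells recombine into a receptor, made up another group on chromosome 14. Of 17 tested regions there, 4 were higher and 0 lower in NOD, beside the 1.66% and 1.36% of all tested regions. This family is not among the gene lists. The 4 include Trav8n-2 and Trav13n-3, which were named for the size of their differences. The comparison with all tested regions is therefore not independent of that choice and is no test of the family. The Trav8n-2 promoter had a scaled signal of 3.58 and 3.81 in NOD and of 0.491 to 1.47 (median 0.757) elsewhere. The difference was 2.26 ± 0.23 (limma, adjusted p = 0.000239), and the choice of this region required that no other sample reach NOD. Trav13n-3 had 3.50 and 3.83 in NOD and 0.217 to 2.19 elsewhere, highest in the B6 male, and its call (2.09, adjusted p = 0.00228) was lost against classical strains (0.0915), in the fit on a single comparison group (0.732) and without either NOD sample (0.131 and 0.087). These windows too were mostly repeated sequence, with a median of 2 and 3 copies per word. The summed promoter signal of the 35 leukocyte genes was 1.66 and 1.59 in NOD, within the 0.509 to 12.5 (median 2.44) of the other samples. The defining T cell genes Cd3e, Cd3d, Cd3g, Cd4 and Cd8a were at 0 in all 16 samples. Other genes of the list that T cells use did have promoter peaks. Lck had one in both NOD samples (0.3488 and 0.3415) and in 12 others, and Il7r in the NOD male (0.122) and in 11 others.

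**Figure D1:**
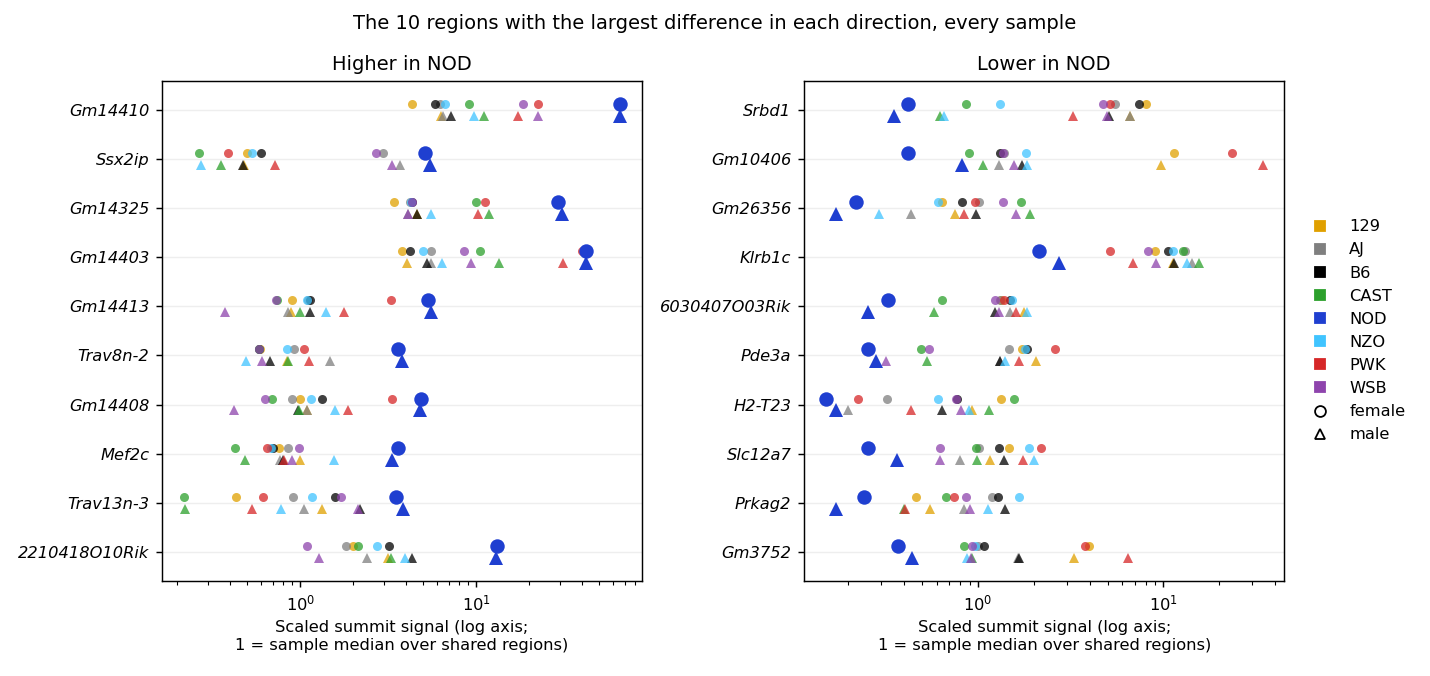
Scaled summit signal (horizontal log axis, 1 is the sample median over shared regions) of every sample at the 10 regions most increased (left) and the 10 most decreased (right) in NOD, each named by its nearest gene, with circles for females, triangles for males and a colour per strain. The NOD samples lie beyond all 14 others in every row, since the choice required it, and PWK comes close at Gm14403 and 2210418O10Rik.

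Single-copy sequence held large increases as well. A region of Mef2c (chr13:83517400-83518960), a MADS-box transcription factor of muscle, neurons and immune cells, lay in an intron 6066 bases from the nearest start site. Its signal was 3.59 in the NOD female and 3.31 in the NOD male. In the other strains it ran from 0.425 in the CAST female to 1.56 in the NZO male, with a median of 0.779. NOD was thus higher by 2.14 ± 0.23 (adjusted p = 0.000359), and Mef2c was 1 of the 4 regions also called higher in the fit on a single comparison group (adjusted p = 0.0193). Without the NOD female it was not called (adjusted p = 0.0562), and over its 23 alternatives the adjusted p ran from 5.04e-05 to that value. A region at an exon of Ssx2ip (chr3:146426052-146427399), which encodes a centrosome protein, had 5.15 and 5.46 in NOD. Its other samples split, with 2.70 to 3.71 in AJ and WSB and 0.264 to 0.719 in the remaining strains, so the difference of 2.76 ± 0.26 (adjusted p = 0.000164) is an average over unlike strains.

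Decreases were mostly at single regions. The largest was 5900 bases from Srbd1 (chr17:86150835-86151405), with 0.419 and 0.354 in NOD and 0.625 to 8.07 (median 5.04) elsewhere, a difference of -3.03 ± 0.22 (adjusted p = 2.98e-05). CAST and NZO were also low there, at 0.625 to 1.31. A region 24276 bases from Klrb1c (chr6:128762866-128765461), a gene of the NKR-P1 family of natural killer cell receptors, was a strong peak in the other strains. It had 2.14 and 2.73 in NOD and 5.18 in the PWK female to 15.6 in the CAST male (median 11.3). That the groups did not overlap was a condition of its choice. The difference was -2.10 ± 0.16 (limma, adjusted p = 3.61e-05), and the region was called under all 23 alternatives tried (adjusted p from 1.09e-08 to 0.0193). Further members were introns of Slc12a7, a potassium chloride cotransporter, at 0.256 and 0.366 in NOD against 0.623 to 2.18, and of Prkag2, a regulatory subunit of the energy sensor AMPK, at 0.244 and 0.171 against 0.397 to 1.65. A region 145509 bases from Pde3a, a phosphodiesterase that degrades cyclic AMP, had 0.256 and 0.280 against 0.318 to 2.60.

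The decreases that lay in gene families were on chromosome 14 between 4 and 8 Mb, where Gm10406 and Gm3752 are found. From 4 to 5 Mb 6 of 10 tested regions were lower and from 7 to 8 Mb 6 of 21, and each of these was repeated sequence. The median difference over tested regions was -1.05 from 4 to 5 Mb but 0.16 from 7 to 8 Mb. From 6 to 7 Mb 3 of 10 were lower (median -0.67). In that same bin, 6 regions by Gm3476, Gm21560 and Gm3594, all repeated, were called only in NOD. Gm10406 had 0.419 and 0.817 in NOD, 9.67 to 34.2 in 129 and PWK, and 0.896 to 1.84 in the other strains. A region 1059 bases from a start of H2-T23, which encodes the MHC class Ib molecule Qa-1, had 0.151 and 0.171 in NOD and 0.200 to 1.56 elsewhere. Its difference was -1.95 ± 0.26 (adjusted p = 0.00199), its words had a median of 2 copies, and the AJ male was nearly as low as NOD. It was not called with the mean signal of a peak (-0.43, adjusted p = 0.324), in the fit on a single comparison group (0.653) or without the NOD female (0.131) or male (0.0724). The main promoter region of H2-T23 did not follow it, with 1.64 and 1.34 in NOD, 1.00 to 2.25 elsewhere and a difference of -0.08 ± 0.23.

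To place the differences among strains, NOD was compared with each strain in the same fit. The number of called regions rose from 363 with AJ (0.887%) and 780 with 129 (1.91%) to 917 with B6 (2.24%), 1964 with WSB (4.8%), 2495 with NZO (6.1%), 3652 with PWK (8.92%) and 7904 with CAST (19.3%). These comparisons share the 2 NOD samples. The order depended on the processing: with no centring B6 (99), NZO (167) and 129 (183) were below AJ (194), and with regions called in at least 12 samples B6 (1558) and 129 (1669) were below AJ (1808). Against CAST, 5329 regions were higher and 2575 lower in NOD, and against AJ 200 and 163. Across shared regions, which are not independent replicates, Pearson's r of the centred signal was 0.962 between the NOD female and male. With AJ it was 0.916 on average (0.909 to 0.923, 4 pairs of samples), with B6 0.888 and with CAST 0.789 (0.756 to 0.818). The r with NZO ranged widely, from 0.737 to 0.894.

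**Figure D2:**
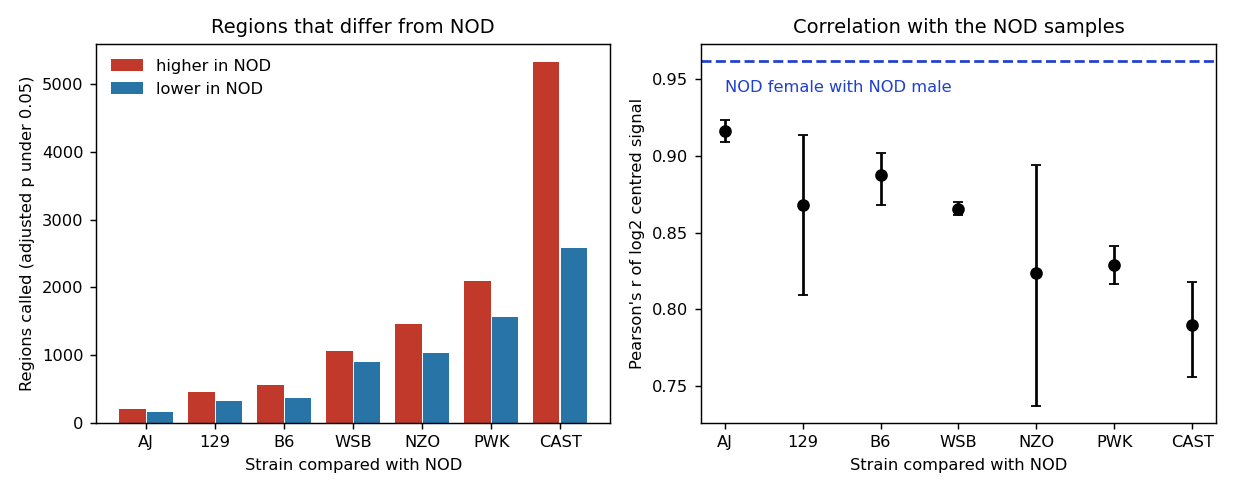
Left, bars from 0 count the shared regions called higher (red) or lower (blue) in NOD against each strain, from 363 in all for AJ to 7904 for CAST. Right, points are the mean Pearson's r between samples of NOD and of each strain, bars give the lowest and highest of 4 sample pairs, and the dashed line is the r of 0.962 between the NOD female and male.

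At 35 regions NOD differed from each of the 7 strains taken singly, with 19 higher and 16 lower in NOD against every strain and 0 in mixed directions. Promoters made up 16 of them and 11 were repeated sequence. Outside repeated sequence, the higher ones included the Pcdh9 promoter on chromosome 14, a protocadherin of cell adhesion, which had 12.4 and 12.3 in NOD and 3.33 to 7.16 elsewhere (1.43 ± 0.17, adjusted p = 0.000555). An intron of Adgra3, an adhesion receptor, had 1.80 and 1.84 against 0.478 to 0.868. Both were clear of all other samples, as was each of the 35. Pcdh9 and Adgra3 were picked for naming after their values were seen.

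Among the 16 lower ones, a region at an exon of 1810019N24Rik on chromosome 7 varied little across the other strains. It had 2.51 and 2.56 in NOD and 5.64 to 7.96 (median 6.56) in the others, a difference of -1.37 ± 0.17 (adjusted p = 0.00113), and it was not called with no centring (0.105) or without the NOD female (0.0834) or male (0.0747). Near Dzip1l, which acts in cilium formation, NOD had 0.849 and 1.00 and the others 2.28 to 4.20 (median 3.01), a difference of -1.72 ± 0.20 (adjusted p = 0.000555). An intron of the kinase gene Dclk1 stood at 0.360 and 0.341 against 0.782 to 2.09, and an exon of Gtf2a1, a subunit of the general factor TFIIA, at 0.314 and 0.427 against 0.946 to 1.47. Without the NOD female Dzip1l (adjusted p = 0.0834) and Gtf2a1 (0.0682) were not called. The region nearest Hnrnpa3 lay 207142 bases away and had 0.430 and 0.329 against 0.986 to 2.40. These 5 regions and those near Klrb1c, 6030407O03Rik and Gm41517 were the 8 called lower in the fit on a single comparison group.

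Regions with a peak in both NOD samples and in no other numbered 233 (0.065% of 358621). By the same count 129 had 187, AJ 214, B6 381, NZO 1125, PWK 3218, WSB 3541 and CAST 6279. The lists ranged from 77887 to 167051 peaks, and with lists of equal length NOD had 514 such regions, 129 272, B6 276, AJ 375, NZO 671, WSB 776, PWK 2018 and CAST 2759. For NOD the count was 2594 without the NOD female and 2930 without the NOD male. With a single strain against 7 no test can pass the threshold. These regions were weak, with a median scaled signal of 0.249, and 7 were above 1. Repeated sequence made up 95 of them (40.8%, against 2.24% of the shared regions). The strongest lay in an intron of Rgs20 (chr1:5000677-5001362), a regulator of G protein signalling, with 3.91 and 3.34. It was followed by a region 2471 bases from the olfactory receptor gene Olfr554, with 2.07 and 3.05. Those in an intron of Gtf2a1l and near Slc24a3 and Ogfrl1 had 0.965 to 2.29 and were all repeated sequence, with a median of 5, 95 and 1023 copies per word.

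The densest group of regions called only in NOD was on chromosome 6 between 130 and 131 Mb, with 14 regions. They lay by Klra6, Klra7, Klra8, Klra9 and Klra10, genes of the Ly49 receptors by which natural killer cells read MHC class I, and by pseudogenes of that family. The gene content of this family varies between inbred strains. The 14 regions were weak (highest scaled signal 0.171 to 0.537) and 9 were repeated sequence. The next were 10 regions on chromosome 12 from 87 to 88 Mb, 9 of them repeated, and 7 on chromosome 7 from 47 to 48 Mb by Mrgpra3, a sensory neuron receptor, which were all repeated. Copy number of these loci was not tested.

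**Figure D3:**
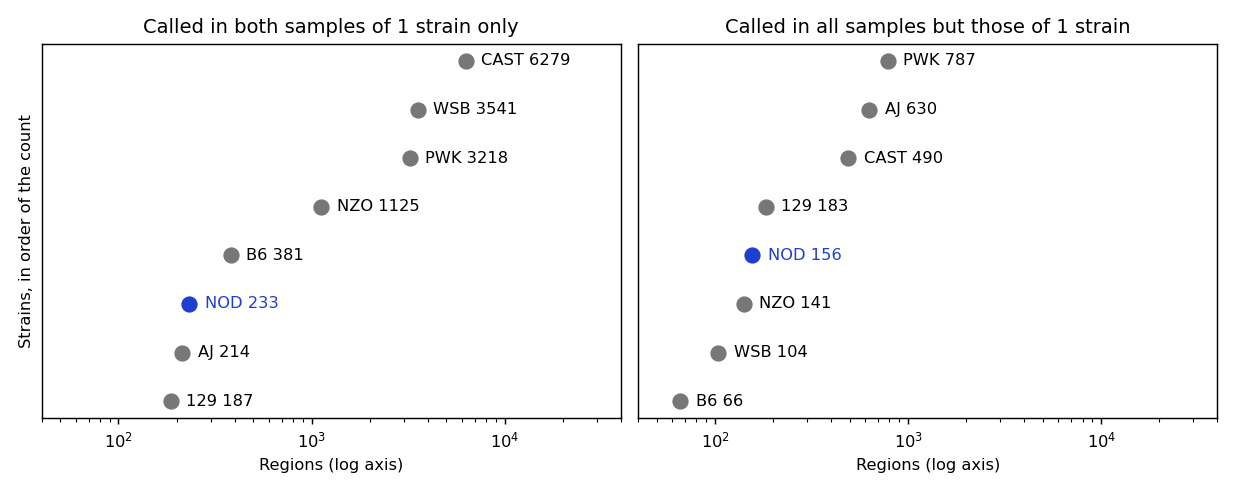
Horizontal log axes count, for each strain, the regions with a peak in both of its samples and in no other (left) and the regions with a peak in the 14 other samples and in neither of its own (right), with strains in order of the count. NOD (blue) has 233 on the left and 156 on the right, in lists that differ in length between samples.

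Peaks were present in all 14 other samples and absent from both NOD lists at 156 regions (0.0435%). The other strains had 66 (B6) to 787 (PWK) such regions. The NOD count was 63 with lists of equal length (54 in B6 to 643 in PWK), 6 where peaks had to cover 0.5 of a region and 600 without AJ. A further 242 regions were absent from NOD and AJ together and present in all samples of the rest, against 6 to 37 for NOD paired with any other strain. AJ alone lacked 630 regions that were present in all other samples, and 295 with lists of equal length. The AJ male had the shortest list, with 77887 peaks, and the count for NOD and AJ together was not taken with equal lists. Of the 156, 15 (9.62%) were repeated sequence. The strongest outside repeated sequence was far from any gene (489950 bases from Lcorl, chr5:46347205-46348941), with 1.2 to 3.84 in the others. The next was an intron of Map3k5 (chr10:20076833-20077917), which encodes the stress kinase ASK1, with 0.655 in the 129 female to 2.97 in the PWK female (median 1.44). The remaining strong ones, the promoters of Gm8113, Gm8237 and Gm48134, were on chromosome 14 in mostly repeated sequence, with means of 1.56 to 3.57 in the others.

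The Arntl2 promoter was among these 156. Arntl2 encodes a basic helix-loop-helix partner of the clock protein CLOCK and has been put forward as a candidate gene of an Idd locus. At chr6:146795392-146796399 the 14 other samples had 0.527 in the AJ male to 2.65 in the NZO male, with a median of 1.1, close to the typical shared region. Neither NOD sample had a peak. It was singled out after its values were seen, from the list of 14 Idd candidate genes. Over Arntl2 there were 5 regions in all, with peaks in 4, 7, 8, 12 and 14 of the other samples, and 0 of the 5 had a peak in NOD. Outside the promoter region given above they were weak, at most 0.753 (NZO female). The AJ male had no peak there either, and the AJ female and the 129 female had one only at chr6:146822000-146822286.

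Among the other Idd candidate genes, promoters of Icos, a T cell costimulator, Tnfrsf9 and B2m were tested and differed by -0.06, -0.10 and 0.15 (log2), none called. Ctla4, an inhibitory receptor of T cells, had a peak in both NOD samples (0.442 and 0.329) and in 13 of 14 others. Il2, Ptpn22 and Slc11a1 had a peak in 3, 5 and 1 of the other samples and in neither NOD sample.

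Genes of beta cells and of the immune response of islets were then examined at their promoters, where the background was the 1.7% and 0.964% given above and the median over tested promoters was -0.00019. A gene was represented by its strongest region within 3000 bases of a start site, by the mean over all 16 samples. Of 21 beta cell promoters tested, 0 were higher and 0 lower, with a median of -0.06 and a range of -0.55 to 0.37. Ins1 had 4.87 and 4.26 in NOD and 1.46 to 6.49 elsewhere, a difference of 0.33 ± 0.27 (adjusted p = 0.518). Ins2 had 0.593 and 0.561 and 0.382 to 1.76 elsewhere (-0.55 ± 0.22, adjusted p = 0.189), and Iapp, the amyloid peptide cosecreted with insulin, 1.03 and 0.537 and 0.538 to 2.41 elsewhere (-0.51 ± 0.28). Pdx1, the master factor of beta cells, had 1.12 and 1.23 and 0.726 to 2.36 elsewhere (-0.45 ± 0.30). All 4 overlapped between the groups. The regions of Ins1 and Iapp were wide, with 10135 and 19140 bases, so their highest summits may lie away from the promoter. Gcg, the glucagon gene of alpha cells, lay above the other strains in both NOD samples, at 5.90 and 5.61 against 1.85 to 4.93, but the difference of 0.64 ± 0.25 did not pass the test (adjusted p = 0.181). Sst had a promoter region in the PWK female alone.

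The 13 islet autoantigen promoters, among them Ins1, Ins2, Gad2 and Slc30a8, gave 0 higher and 0 lower with a median of -0.05. The 31 tested promoters of interferon and cytokine response gave 0 and 0, with a median of -0.03 and a range of -0.44 to 0.57. B2m, the light chain of MHC class I, had 4.39 and 3.98 in NOD and 2.70 to 5.29 elsewhere (0.15 ± 0.19, adjusted p = 0.685), and Cxcl10, a chemokine that draws T cells, 3.67 and 3.07 and 2.68 to 4.99. NOD lay inside the range of the other strains at both. Irf8, a factor of myeloid and B cells, had a promoter peak in 10 of 14 other samples (0 to 0.909) and in neither NOD sample. Both AJ samples, the B6 male and the PWK male had no peak there either. Irf8 was picked out after its values were seen.

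Of 18 MHC genes 10 promoters were tested, with 0 higher, 0 lower and a median of -0.17. The lowest were H2-D1 (-0.97 ± 0.31, adjusted p = 0.107) and H2-K1 (-0.80 ± 0.26, adjusted p = 0.108), the classical class I heavy chains. H2-D1 had 2.43 and 2.61 in NOD and 1.85 to 15.98 elsewhere. Reads from the near-identical class I genes can be assigned to one another, so these values are uncertain. The class II genes H2-Ab1 and H2-Aa differed by -0.49 ± 0.32 and -0.14 ± 0.25. H2-Ea had no promoter region in any sample. Between 33 and 38 Mb on chromosome 17, which holds the MHC, 4 of 138 tested regions were higher (2.9%) and 2 lower (1.45%).

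The remaining lists for cell types other than beta cells and for stress held 1 call. Bhlha15, a factor of acinar secretory cells, was lower, at 0.395 and 0.402 in NOD against 0.436 to 1.16 (median 0.737) elsewhere, a difference of -0.84 ± 0.21 (adjusted p = 0.0478). It was called under 7 of 22 alternatives, with adjusted p from 0.0239 to 0.721. Other acinar genes of the list did not all go this way. Ptf1a had 0.767 and 0.683 in NOD and 0 to 0.594 elsewhere, and was not tested for lack of a peak in some samples. Nr5a2 differed by 0.44 ± 0.20 and was not called (limma, adjusted p = 0.237). Rbpjl had a peak in 8 other samples and in neither NOD sample. The summed promoter signal of the 15 acinar genes was 3.28 and 2.76 in NOD and 2.27 to 4.95 elsewhere. The 20 unfolded protein response promoters (median -0.06), 16 antioxidant (0.03), 10 housekeeping (-0.15), 4 other endocrine (0.01), 3 duct (0.01), 3 mesenchymal (0.45) and 1 endothelial promoter (0.26) tested gave 0 higher and 0 lower. Of the leukocyte genes 0 were tested, since none was called in every sample, and 5 had a peak in both NOD samples: Lck, Cd68, Cd14, Coro1a and Ikzf1.

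**Figure D4:**
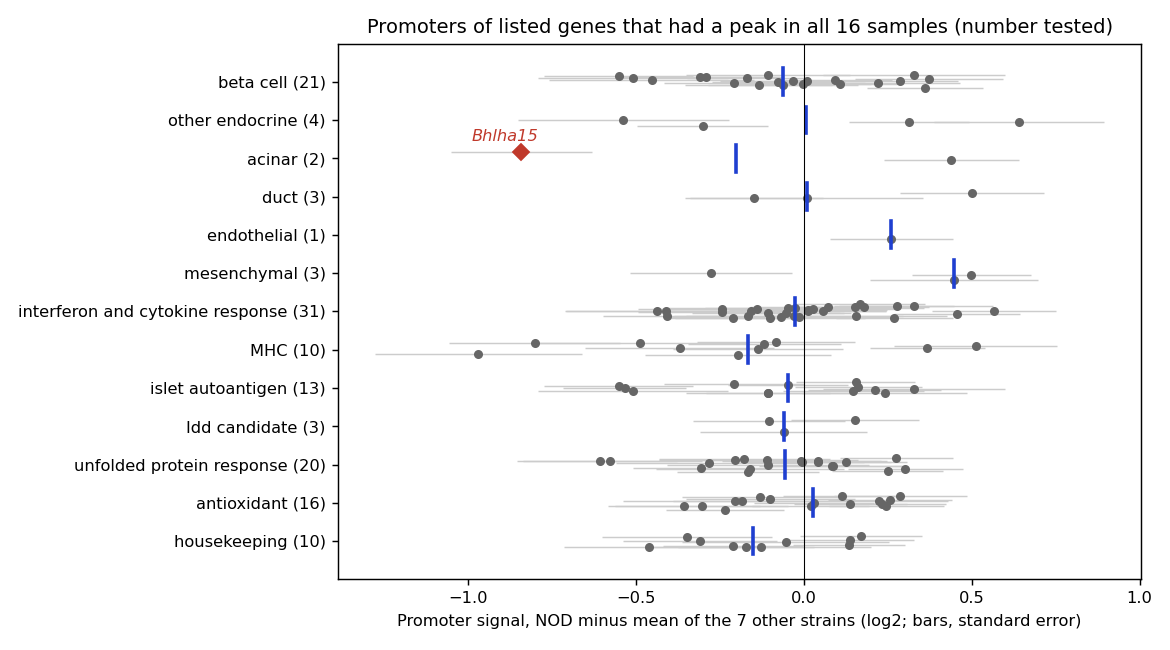
Each point is the tested promoter of a listed gene, placed on the horizontal axis by the log2 difference of NOD from the mean of the 7 other strains, with its standard error as a grey bar, and blue lines are list medians. The points scatter around 0, and Bhlha15 (red, -0.84) is the single one called.

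AP-1 letters were taken as TGANTCA with any base in the middle, a looser pattern than the TGACTCA and TGAGTCA that Fos and Jun dimers bind. Both matches in the Dzip1l window read TGAATCA, and the forms were not counted apart. AP-1 letters were in 30.3% of the lower windows, 9.69% of the higher and 15.8% of all tested. Promoters hold fewer of them, so the shares were taken again outside promoters, where they were 142 of 415 lower windows (34.2%), 55 of 429 higher (12.8%) and 5085 of 26094 tested (19.5%). In promoters they were 18.9%, 4.37% and 9.32%. The SP/KLF and CTCF letters, in contrast, were in 6.27% and 11.1% of the lower windows and in 15.3% and 17.3% of the tested ones. These shares were not taken again outside promoters. Promoters made up 25.63% of the lower and 36.25% of the tested regions, and 933 of the 6271 tested windows with SP/KLF letters lay outside them. The interferon-stimulated response element was in 5.58% of higher, 4.48% of lower and 3.97% of tested windows.

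The level at AP-1 windows in NOD was within the range of the other strains. Outside promoters, the median centred signal of windows with AP-1 letters less that of windows without was -0.06 in the NOD female and 0.04 in the NOD male. In the other 14 samples it ran from -0.18 in the 129 male to 0.58 in the WSB male, with a median of 0.24. NOD lay inside that range, with 3 other samples below both NOD values. The median log2 difference of NOD from the other strains was -0.13 over the windows with AP-1 letters and 0.10 over those without.

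**Figure D5:**
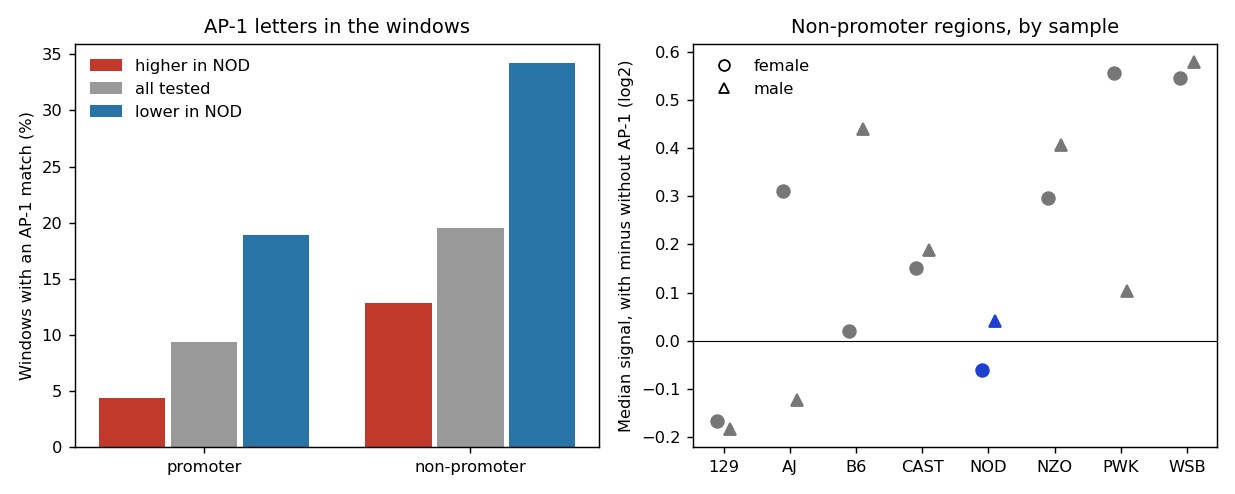
Left, bars from 0 give the percentage of 300-base windows with AP-1 letters among regions higher in NOD, all tested and lower in NOD, in promoters (4.37%, 9.32% and 18.9%) and outside (12.8%, 19.5% and 34.2%). Right, the median log2 signal of non-promoter windows with AP-1 letters less that of windows without, by sample, with circles for females and triangles for males, where NOD (blue, -0.06 and 0.04) lies inside the range of the other strains.

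Since female and male NOD mice differ in the incidence of diabetes, the female minus male difference of NOD was compared with that of the 7 other strains. No region passed the test (0 of 40930, or 0%), while 374 had an unadjusted p under 0.05 (limma). With regions called in at least 12 samples, and absent peaks set to 0, 706 were called. Each sex of NOD was 1 sample.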

How the data were processed

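ATAC-seq was read in 16 islet samples, 1 per strain and sex. Per the labels and the published methods, reads were trimmed by the authors with cutadapt 2.0, aligned to the reference genome mm10 with Bowtie2 2.3.4.1, handled with SAMtools and Picard 2.9.2, and turned into peak lists sample by sample with MOSAiCS (FDR 0.05). A shift for the cut of the transposase and a filter on multiply mapped reads are not given in the sources used here. The deposited summit signal is a whole number that was not scaled to depth, the deposited −log10 p-value ranks the peaks, and the strain lists of the authors carry the −log10 of an irreproducible discovery rate, used in an alternative alone.

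Peaks on chromosomes 1 to 19 were merged where they shared 1 base. On the log2(signal + 1) scale, the median of each sample over the regions called in all 16 was subtracted. With pseudocount 1, a fold change of a low region is understated. Differences between NOD and the mean of the other strains came from limma 3.58.1 (R 4.3.3) with strain and sex in the model, which leaves 7 residual degrees of freedom. The published test was on read counts, which the lists do not hold. Annotation was GENCODE M21 on GRCm38, the assembly of mm10, and sequence came from its RefSeq copy. Non-promoter regions carry the name of the gene they lie in or of the nearest gene.

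Regions were named by rule: the 10 largest differences in each direction with both NOD samples beyond all others, the 5 strongest regions called only in NOD and the 5 strongest missing only there, called list genes, and 10 set genes, of which 1 is not reported here. Regions called in the fit on a single comparison group were added after their results were seen. The members, the 14 gene lists and the 14 motifs were chosen with earlier results of these data known. Chromosome Y was not compared, and on chromosome X peaks were only counted. There 9 regions were called only in NOD, against 2 (129) to 566 (PWK) in the other strains. Missing only in NOD were 3, against 1 (B6 and WSB) to 27 (PWK).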

Additional observations from a re-analysis of the deposited data

How the results depend on the processing

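The labels carry no replicate numbers. Each strain has 1 female and 1 male, and sex was the block of the fit across strains. Without that term 772 regions were higher and 652 lower in NOD. The main counts of 681 and 558 became 129 and 31 with no centring, which moved the median difference from 0.04 to 0.24 and the higher share of calls from 55.0% to 80.6%. They became 199 and 160 with the mean signal of a peak, 72 and 71 against classical strains only, 4 and 8 in the fit on a single comparison group, and 1348 and 1434 with regions called in at least 12 samples. A pseudocount of 10 gave 1032 higher regions and centring within bins of GC content, added after seeing the data, 1046, and the more significant 0.5 of each list gave 273 lower ones. Leaving out an NOD sample or a strain gave 26 to 1544 higher and 20 to 1030 lower regions, fewest without an NOD sample, which assumes that the lone sample varies like the others. The cause of these shifts was not tested.

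Against single strains, no centring gave 183 regions for 129, 194 for AJ, 99 for B6, 167 for NZO, 200 for WSB and 15773 for PWK, whose male had the lowest signal. The mean signal gave 241 for 129, 125 for AJ, 375 for B6, 906 for NZO and 4724 for CAST, and regions called in at least 12 samples gave 1669 for 129, 1808 for AJ and 1558 for B6. AJ was not the lowest with no centring or with regions called in at least 12 samples. The sex comparison called 706 regions when regions with a peak in 12 samples entered, with absent peaks set to 0, and 0 under the other 4 alternatives.

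Regions called only in NOD numbered 107 in the more significant 0.5 of each list, 514 with lists of equal length, 407 where peaks had to cover 0.5 of a region, 708 in the strain lists at an irreproducible discovery rate of 0.05, 987 against classical strains and 138 without repeated sequence, an alternative added after seeing the data. They numbered 270 to 2930 with a sample or strain left out (390 without WSB, 2594 without the NOD female, 2930 without the NOD male). Regions missing only in NOD numbered 90, 63, 6 and 341 under the same list cut, equal lengths, the cover rule and classical strains, and 167 to 600 with a sample or strain left out (600 without AJ, 244 without 129, 279 without the NOD female, 447 without the NOD male). Over the named called regions, 569 of the values under alternatives kept their call, 62 lost it and 1 turned direction: Gm14403 at -0.10 with the mean signal, whereas it was 2.39. Among regions that were not called, Pdx1 turned to 0.069 and B2m to -0.082 with the mean signal.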
